A study of Mus musculus with 18 samples.

Results

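Collagens are the proteins that make up most of the liver's extracellular matrix, and 10 collagen chain genes were followed here in the livers of mice that lacked *Gpr180*: *Col1a1*, *Col1a2*, *Col3a1*, *Col5a2*, *Col14a1*, *Col6a1*, *Col6a3*, *Col4a1*, *Col4a2* and *Col18a1*. They were taken by symbol from a transcript table of 23352 gene symbols, and none of their values was marked as failed. All 10 had a mean of at least 1 FPKM (a transcript level expressed per transcript length and per mapped reads of the library) and were therefore among the 10835 genes tested. A further 6 collagen chains passed the same minimum and are described beside them, out of 44 collagen chains in the table.

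The livers came from 18 male mice on a C57BL/6J background, 20 weeks old and fed a high-fat diet, of which 9 were wild type (WT) and 9 were homozygous knockout mice (*Gpr180*KO). *Gpr180* encodes a membrane protein of the G protein-coupled receptor class, the knockout removed a single exon by CRISPR/Cas9 in every cell of the body, and a truncated transcript could still be made. WT and *Gpr180*KO lines were both derived from heterozygous founders, so the livers differ by genotype and share the diet, sex and age. The sample titles came in 2 styles, with 4 mice per genotype in style 1 and 5 per genotype in style 2, and the styles were treated as a possible batch. In the *Gpr180*KO livers *Gpr180* lay between 0.876 and 1.99 FPKM (median 1.79), below all WT livers at 4.46 to 9.24 FPKM (median 7.29). *Gpr180* differed by -1.998 (SE 0.18) on the log2(FPKM + 0.1) scale, *Gpr180*KO minus WT, with an adjusted p of 4.74e-06 in limma with Benjamini-Hochberg adjustment over all genes. Every log2 difference below is on this scale and in this direction, and is given with its SE.

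A collagen molecule is a rope of 3 chains in which glycine recurs at the same place in each amino acid triplet, the only residue small enough to fit the centre of the helix. Fibrillar collagens (types I, III and V here) assemble side by side into the stiff fibres that accumulate in a scarred liver, where activated hepatic stellate cells and portal fibroblasts are their main makers. Network-forming type IV collagens build the basement membrane, type VI builds fine beaded microfilaments between cells, type XIV decorates the surface of fibrils, and type XVIII carries the sequence that is cleaved to yield endostatin. In healthy liver, hepatocytes are known to make type XVIII, and sinusoidal endothelial and stellate cells to make type IV.

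The difference between these classes can be read in the coding sequences, taken from GENCODE M21 transcripts on GRCm38. A script counted unbroken runs of codon triplets that start with a glycine codon, with at least 3 triplets in a run. The 4 fibrillar chains each held 1 very long run, of 338 triplets in *Col1a1*, 339 in *Col1a2*, 344 in *Col3a1* and 339 in *Col5a2*. The type IV chains had more triplets in all but in short runs, with a longest run of 40 in *Col4a1* and 66 in *Col4a2*, broken 22 and 23 times. *Col18a1* had a longest run of 30 triplets with 15 breaks, *Col6a1* of 87, *Col6a3* of 45 and *Col14a1* of 32. Stretches of 30 codons from the helical part of a fibrillar and of a type IV chain show the pattern, with the glycine codons that start a triplet in capitals. The first is codons 168 to 197 of *Col1a1* and the second codons 212 to 241 of *Col4a1*, where 2 codons break the repeat.
Col1a1: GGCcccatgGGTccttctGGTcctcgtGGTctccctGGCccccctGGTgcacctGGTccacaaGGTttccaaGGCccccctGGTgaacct
Col4a1: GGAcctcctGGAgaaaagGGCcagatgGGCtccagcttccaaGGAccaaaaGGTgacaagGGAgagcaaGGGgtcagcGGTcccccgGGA

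In the genome several of these chains are neighbours. *Col3a1* (chr1:45311538-45349706, plus strand) and *Col5a2* (chr1:45374321-45503282, minus strand) lie next to each other on GRCm38. *Col4a1* (chr8:11198423-11312826, minus strand) and *Col4a2* (chr8:11312805-11449287, plus strand) lie head to head, and their annotated first exons overlap by 22 bases, shown because the pair differed by nearly the same amount between genotypes. On the plus strand, and within the untranslated leader of both genes, it reads as follows.
Col4a1 and Col4a2 shared start, chr8:11312805-11312826: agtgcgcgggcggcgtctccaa
The positions deposited with the FPKM values end *Col4a1* at 11312826 and start *Col4a2* at 11312829, so there the genes do not overlap. In GENCODE M21, reads from the shared bases could not be assigned to one gene without strand. They are a small part of transcripts of 6615 bases (*Col4a1*) and 6450 bases (*Col4a2*). *Col3a1* likewise shares 141 exon bases with an annotated miRNA gene on its own strand, and *Col4a2* shares 43 bases with an antisense gene. In RefSeq promoter windows of GRCm38.p6, running from 250 bases before to 50 bases after the start, 8 windows of 7 of the 10 genes were matched. CCAAT, searched on both strands, was found in windows of *Col1a2*, *Col4a1*, *Col4a2* and *Col18a1*, against 37.4% of 32851 mouse promoter windows, and TATAAA only in that of *Col3a1*, against 13.6%.

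Among WT livers the levels of the 10 chains spread widely. *Col18a1* was the most abundant chain at 158 ± 16.3 FPKM (mean ± SD, n = 9), followed by *Col3a1* at 30.2 ± 13.8, *Col14a1* at 16.3 ± 4.60 and *Col4a1* at 12.9 ± 3.68 FPKM. *Col1a2* stood at 10.99 ± 5.90 and *Col1a1* at 9.27 ± 4.90 FPKM, close to *Col4a2* at 8.20 ± 2.01. The least abundant chains were *Col6a1* at 4.58 ± 1.51, *Col6a3* at 2.92 ± 1.10 and *Col5a2* at 2.06 ± 1.02 FPKM. In a two-sided exact sign-flip permutation test of neighbours in this order within each liver, 7 of 9 neighbouring pairs differed with adjusted p under 0.05 over the 18 pairs of both genotypes. The exceptions were *Col4a1* against *Col1a2* (adjusted p = 0.0502 in the exact test, *Col4a1* higher in 7 of 9 livers) and *Col1a1* against *Col4a2* (adjusted p = 0.930, 5 of 9 livers).

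In the *Gpr180*KO livers the order was different. *Col18a1* was again first at 165 ± 21.6 FPKM, but *Col14a1* at 10.95 ± 2.94 now preceded *Col3a1* at 8.83 ± 4.10 FPKM, with *Col14a1* higher in 7 of 9 livers (adjusted p = 0.0469, exact sign-flip test). With the order set by the mean of log2 values this pair no longer passed (adjusted p = 0.0511, exact test), and 4 rather than 6 neighbouring pairs differed. *Col4a1* at 7.51 ± 2.52 and *Col4a2* at 4.98 ± 1.77 FPKM both stood above *Col1a2* at 3.37 ± 1.74 and *Col1a1* at 2.32 ± 1.54 FPKM. *Col1a1* thus moved from next to *Col4a2* to next to *Col6a1* at 2.37 ± 0.69 FPKM, from which the test did not separate it (adjusted p = 0.268, exact test). The test did not separate *Col3a1* from *Col4a1* either (adjusted p = 0.188, exact test), nor *Col6a3* at 1.21 ± 0.55 from *Col5a2* at 0.952 ± 0.332 FPKM (adjusted p = 0.426, exact test).

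**Figure D1:**
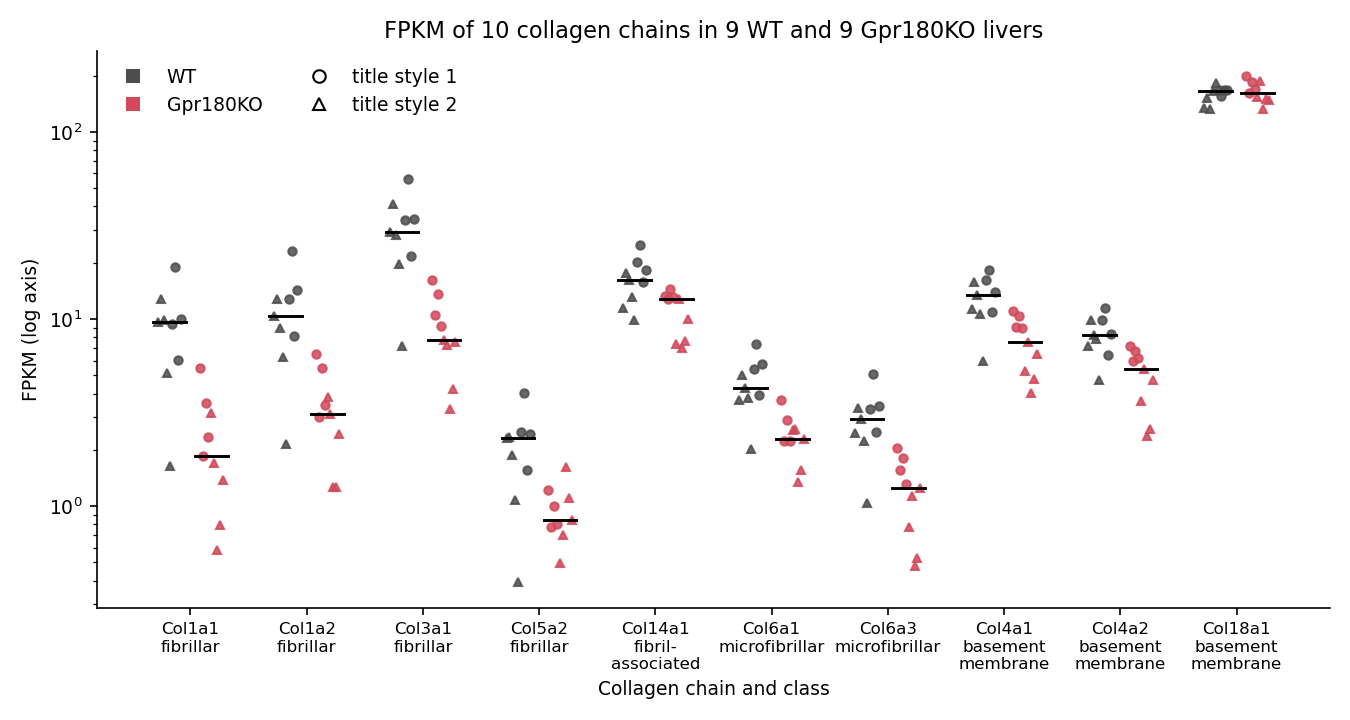
FPKM on a log axis for the 10 collagen chains, ordered by class. Each point is 1 liver, dark for WT and red for *Gpr180*KO, circles for title style 1 and triangles for title style 2, and black lines are medians of 9 livers; the *Gpr180*KO medians are far lower for most chains, while for *Col18a1* all livers lie between 132 and 199 FPKM.

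The question for these genes was whether loss of *Gpr180* went with other collagen levels in the fat-fed liver. In limma, 7 of the 10 chains were lower in *Gpr180*KO livers with adjusted p under 0.05 and 0 were higher (also 0 at an unadjusted p under 0.05), where 4.28% of all genes tested were called lower and 0.452% higher. The 7 were *Col1a1*, *Col1a2*, *Col3a1*, *Col6a1*, *Col6a3*, *Col4a1* and *Col4a2*. *Col5a2* and *Col14a1* had lower means without passing the test, and *Col18a1* had nearly equal means. For the 9 chains other than *Col18a1* the log2 difference was negative under every scaling and with any 1 liver left out. The median log2 difference of the 10 chains was -0.90, beside -0.13 over all genes tested; with median-of-ratios scaling it was -0.78 beside -0.0054, and the chains called lower were 5, with 0 higher. Over all genes that scaling changed the split of calls from 464 lower and 49 higher to 171 lower and 112 higher. Livers are mixtures of cells, so fewer collagen-making cells and less collagen RNA per cell cannot be told apart in these values.

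The fibrillar chains of type I and III had the largest differences. *Col1a1*, the major chain of type I collagen, lay between 1.64 and 18.9 FPKM (median 9.59) in WT livers and between 0.582 and 5.46 FPKM (median 1.86) in *Gpr180*KO livers. Of the 9 WT livers 7 were above every *Gpr180*KO liver, and the other 2, W157 at 1.64 and W156 at 5.15 FPKM, were below the highest *Gpr180*KO liver. The share of all genes with 7 WT livers so placed was not counted. *Col1a1* fell to 25.03% of the WT mean, a log2 difference of -1.99 (SE 0.42, adjusted p = 0.0161 in limma). *Col1a2*, which supplies the partner chain in the same molecule, ranged from 2.16 to 23.2 FPKM (median 10.4) in WT and from 1.26 to 6.49 FPKM (median 3.10) in *Gpr180*KO livers. All 9 *Gpr180*KO livers were below the WT median, and the log2 difference was -1.63 (SE 0.37, adjusted p = 0.0218 in limma).

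*Col3a1* forms homotrimers that are laid down with type I fibres and was the most abundant fibrillar chain. It ranged from 7.22 to 55.8 FPKM (median 29.1) in WT and from 3.32 to 16.1 FPKM (median 7.70) in *Gpr180*KO livers. The WT liver W157 lay inside the *Gpr180*KO range. The other 8 WT livers were above every *Gpr180*KO liver, the next lowest being at 19.8 FPKM. How many of all genes separate in this way with 1 liver set aside was not counted. The log2 difference was -1.73 (SE 0.33, adjusted p = 0.0132 in limma).

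*Col5a2*, a type V chain that is built into type I fibrils and limits their width, was the least abundant. It ranged from 0.392 to 4.02 FPKM (median 2.30) in WT and from 0.495 to 1.62 FPKM (median 0.839) in *Gpr180*KO livers. W157 was here below every *Gpr180*KO liver, while 6 WT livers were above every *Gpr180*KO liver. The share of all genes with 6 WT livers so placed was not counted. The log2 difference was -0.90 (SE 0.31, 95% interval -1.54 to -0.26) and did not pass the test (adjusted p = 0.0896 in limma), but without W157 it was -1.15 with adjusted p = 0.00597. The liver KO53, which had the lowest *Col1a1* of all at 0.582 FPKM, had the highest *Col5a2* of its genotype at 1.62 FPKM. The FPKM of *Col5a2* per FPKM of *Col1a1* was 0.184 to 0.265 over the 9 WT livers but 0.157 to 2.78 over the *Gpr180*KO livers. Its medians were 0.252 (WT) and 0.311 (*Gpr180*KO) in title style 1, and 0.208 and 0.607 in title style 2. W157 lay within the narrow WT range of this ratio although both of its chains were low.

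The 2 type I chains also stood in different proportions in most livers. The ratio of *Col1a1* to *Col1a2* FPKM was 0.704 to 1.11 (median 0.815) in WT livers and 0.460 to 0.842 (median 0.630) in *Gpr180*KO livers, and 7 of the 9 *Gpr180*KO livers were below every WT liver. *Col3a1* per *Col1a1* ran the other way, from a WT median of 3.42 to a *Gpr180*KO median of 4.27, with wide overlap of 2.84 to 4.397 against 2.44 to 5.70. Both ratios differed more between genotypes in title style 2. Medians of *Col1a1* per *Col1a2* were 0.737 (WT) and 0.667 (*Gpr180*KO) in style 1, and 0.919 and 0.570 in style 2. Those of *Col3a1* per *Col1a1* were 3.52 and 3.85 in style 1, and 3.24 and 5.32 in style 2. These ratios were looked at as descriptions and were not tested.

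*Col14a1* lies on the surface of fibrils as a type XIV homotrimer. It ranged from 9.85 to 24.9 FPKM (median 16.1) in WT and from 7.0002 to 14.5 FPKM (median 12.8) in *Gpr180*KO livers. Its means were higher in style 1 in both genotypes, with means of 19.7 (WT) and 13.4 (*Gpr180*KO) in style 1 and 13.6 and 8.98 FPKM in style 2. The log2 difference was -0.57 (SE 0.18, 95% interval -0.95 to -0.19), with adjusted p = 0.0705 in limma. With title style as a block the same chain passed (adjusted p = 0.0109), in a fit in which 9.52% of all genes were called lower.

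The median log2 difference of the 2 microfibrillar chains was -1.07, beside -1.68 for the 4 fibrillar chains, although *Col5a2* had a smaller difference than *Col6a3*. *Col6a1* ranged from 2.01 to 7.34 FPKM (median 4.28) in WT and from 1.35 to 3.67 FPKM (median 2.28) in *Gpr180*KO livers. *Col6a3*, the longer of the 2 with a transcript of 9001 bases, ranged from 1.04 to 5.07 (median 2.92) and from 0.481 to 2.05 FPKM (median 1.26). For both chains W157 was the one WT liver inside the *Gpr180*KO range, and the other 8 WT livers were above every *Gpr180*KO liver. Here too the share of all genes with such a separation was not counted. The log2 differences were -0.90 (SE 0.21, adjusted p = 0.0221) for *Col6a1* and -1.23 (SE 0.28, adjusted p = 0.0212) for *Col6a3* in limma. *Col6a2*, the third chain of the classical type VI molecule, went from 3.09 ± 0.930 to 1.48 ± 0.388 FPKM (n = 9 each), with a log2 difference of -1.01 (SE 0.18, adjusted p = 0.00726 in limma).

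*Col4a1* and *Col4a2* combine in the type IV network of the basement membrane. *Col4a1* ranged from 5.94 to 18.2 FPKM (median 13.4) in WT and from 4.01 to 11.05 FPKM (median 7.53) in *Gpr180*KO livers. *Col4a2* ranged from 4.73 to 11.5 (median 8.23) and from 2.36 to 7.18 FPKM (median 5.41). Both fell by similar amounts, with log2 differences of -0.79 (SE 0.21, adjusted p = 0.0393) and -0.76 (SE 0.21, adjusted p = 0.0446) in limma. The 2 genes with the shared start also had overlapping proportions, since *Col4a1* per *Col4a2* was 1.26 to 1.70 (median 1.61) in WT and 1.38 to 1.86 (median 1.52) in *Gpr180*KO livers. Both calls were close to the threshold, and with median-of-ratios scaling, in which 1.58% of all genes were called lower, the adjusted p-values were 0.0590 and 0.0745. Each of the 2 chains was called in 5 of the 18 fits that left out 1 liver, those without W157, KO319, KO320, KO321 or KO322, and neither was called with no FPKM minimum.

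*Col18a1* stood apart from all other chains. It ranged from 132.9 to 182 FPKM (median 166) in WT livers and from 132 to 199 FPKM (median 162) in *Gpr180*KO livers, and 5 of 9 *Gpr180*KO livers were below the WT median. The log2 difference was 0.06 (SE 0.09), with a 95% interval of -0.12 to 0.24 and adjusted p = 0.705 in limma. Its spread between livers was also the smallest, with a coefficient of variation of 10.3% in WT and 13.1% in *Gpr180*KO livers, against 52.9% and 66.4% for *Col1a1*. W157, the lowest WT liver for the other 9 chains, was the highest WT liver for *Col18a1*.

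**Figure D2:**
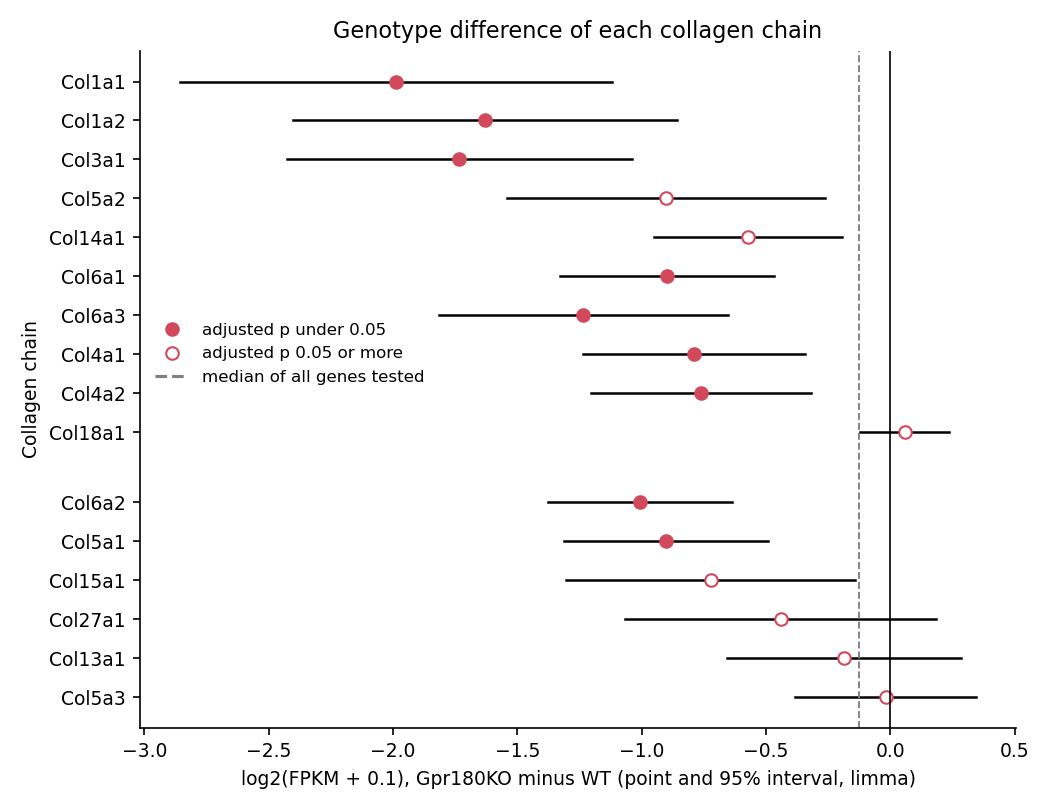
Log2 difference of each collagen chain, *Gpr180*KO minus WT, on the log2(FPKM + 0.1) scale, with 95% intervals from limma over 9 livers per genotype; the upper block holds the 10 chains and the lower block the 6 further chains tested. Filled points passed adjusted p under 0.05, and the dashed line is the median of all genes tested (-0.13); the intervals of the type I and III chains reach from -2.86 to -0.86, while that of *Col18a1* spans 0.

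Set against each other, the classes stood at different shares of their WT levels. The summed FPKM of the 4 fibrillar chains was 11.4 to 102 (median 51.4) in WT and 6.78 to 29.2 (median 15.2) in *Gpr180*KO livers, and the *Gpr180*KO mean was 29.5% of the WT mean. For the 2 microfibrillar chains that share was 47.8%, for *Col14a1* 67.0% and for the 2 type IV chains 59.1%. These sums hold only the 10 chains, and the further chains *Col5a1*, *Col5a3* and *Col6a2* were left out. *Col5a3*, also of type V, had close means of 8.90 (WT) and 9.12 FPKM (*Gpr180*KO), so the fibrillar share depends on the chains summed. *Col3a1* was the largest part of the fibrillar sum, at 30.2 of 52.5 FPKM in the WT means. The basement membrane sum with *Col18a1* was dominated by that chain and came to 99.0% of the WT mean. With *Col18a1* included, the 10 chains together came to 81.2% of the WT mean, and without it to 43.6%.

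The fibrillar sum per type IV sum within a liver was 1.07 to 3.44 (median 2.26) in WT and 0.988 to 1.70 (median 1.07) in *Gpr180*KO livers. All 9 *Gpr180*KO livers were below the WT median, and W157 had the lowest WT value, at 1.07. The fibrillar sum per microfibrillar sum was 3.73 to 8.35 (median 6.69) in WT and 3.44 to 5.11 (median 4.26) in *Gpr180*KO livers. Microfibrillar per type IV values were nearer to each other over both styles together, at medians of 0.333 and 0.287. In style 1 the medians of this ratio were 0.390 (WT) and 0.263 (*Gpr180*KO), and in style 2 they were 0.327 and 0.288. The fibrillar to type IV ratio had a lower median in *Gpr180*KO livers in both title styles, with medians of 2.49 (WT) and 1.23 (*Gpr180*KO) in style 1 and of 2.26 and 1.06 in style 2. No test was run on these sums, which were made from chains already compared one by one.

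**Figure D3:**
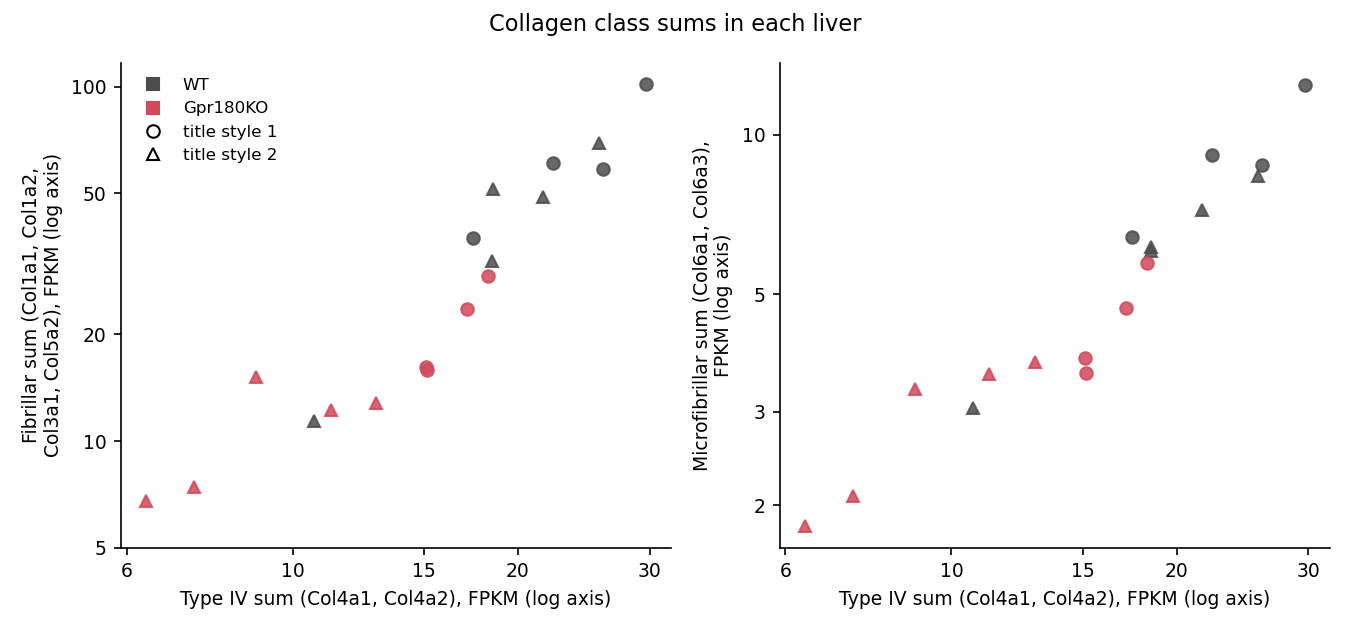
Fibrillar (left) and microfibrillar (right) collagen sums against the type IV sum in each of 18 livers, FPKM on log axes, dark for WT, red for *Gpr180*KO, circles for title style 1 and triangles for title style 2. Fibrillar sums run from 6.78 to 102 while type IV sums run from 6.37 to 29.7, and the WT liver W157 (type IV sum 10.7) sits among the *Gpr180*KO livers.

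The genotype difference was compared between the 2 title styles. In style 1 and style 2 the log2 differences were -1.71 and -2.21 for *Col1a1*, -1.51 and -1.91 for *Col3a1* and -0.99 and -0.82 for *Col6a1*. For *Col4a2* they were -0.43 and -1.03, the pair with the lowest p of the interaction among the 10 chains (adjusted p = 0.708 in limma). No chain differed between styles with adjusted p under 0.05, and the difference for *Col5a2*, -1.32 against -0.57, had an SE of 0.59 (adjusted p = 0.795 in limma). Within style 1 alone 7 chains were called lower, namely the 4 fibrillar chains, *Col14a1*, *Col6a1* and *Col6a3*, where 4.5% of all genes were. Within style 2 alone 0 chains and 0 genes were called in limma, where 1783 genes lower and 236 genes higher had an unadjusted p under 0.05. At that unadjusted level were 8 of the chains, the exceptions being *Col5a2* and *Col18a1*.

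W157 weighs on these results as 1 WT liver. Its *Gpr180* level of 7.29 FPKM was the WT median, so the target gene gave no sign of a swapped label. Without W157 9 of the 10 chains were called lower in limma, that is all but *Col18a1*, with a log2 difference of -2.26 for *Col1a1* and of -0.92 for *Col4a1*, and 844 of all 10835 genes were. In the opposite direction, 2 chains, *Col1a1* and *Col3a1*, were called without W133, and 3 without W317, namely these and *Col6a3*. The genes called lower were then 116 and 146, so in these fits the number of chains and the number of all genes called moved the same way. That did not hold without KO51, where fewer chains but more genes were called lower. The counts were then 5 chains and 689 genes, against 7 and 464 with no liver left out. Every *Gpr180*KO liver was below every WT liver for none of the 10 chains, and for 0.175% of all genes tested.

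Livers with more of one chain had more of the others. After the means of genotype and title style were removed from log2(FPKM + 0.1), Pearson's r between chains over the 18 livers had a median of 0.83 over the 45 pairs. *Col1a1* and *Col1a2* were the closest pair, with r = 0.98 and Spearman's rho = 0.98 (adjusted p = 6.43e-05 and 7.5e-05, permutation test within genotype and style, whose smallest unadjusted p is 1e-05). *Col4a1* and *Col4a2* gave r = 0.94 and rho = 0.97, and *Col6a1* and *Col6a3* r = 0.93 and rho = 0.90. Of the 45 pairs, 28 passed the permutation test by both measures. They were the pairs among the 8 chains other than *Col5a2* and *Col18a1*, with r from 0.60 to 0.98. The set of 8 describes that outcome and is not a separate test, and pairs of other genes were not tested for comparison. Without the 2 livers farthest from the median of the first chain, r of those 28 pairs was 0.52 to 0.98.

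*Col5a2* and *Col18a1* did not follow this pattern. The r of *Col5a2* with the 8 chains was 0.32 to 0.59 and none of these pairs passed after adjustment. *Col18a1* had r between -0.18 and 0.14 with those 8, and with *Col5a2* r = -0.60 and rho = -0.55 (adjusted p = 0.0508 and 0.0740, permutation test over 45 pairs). That last relation rested in part on 2 livers, since r was -0.36 without them. The libraries differed 2.26 times in relative depth, as read from the steps of low values. The precision of a single liver differed between the chains: the interval deposited with each FPKM reached, at the median, 17.8% of the value to either side for *Col5a2*, 13.1% for *Col1a1* and 2.42% for *Col18a1*.

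**Figure D4:**
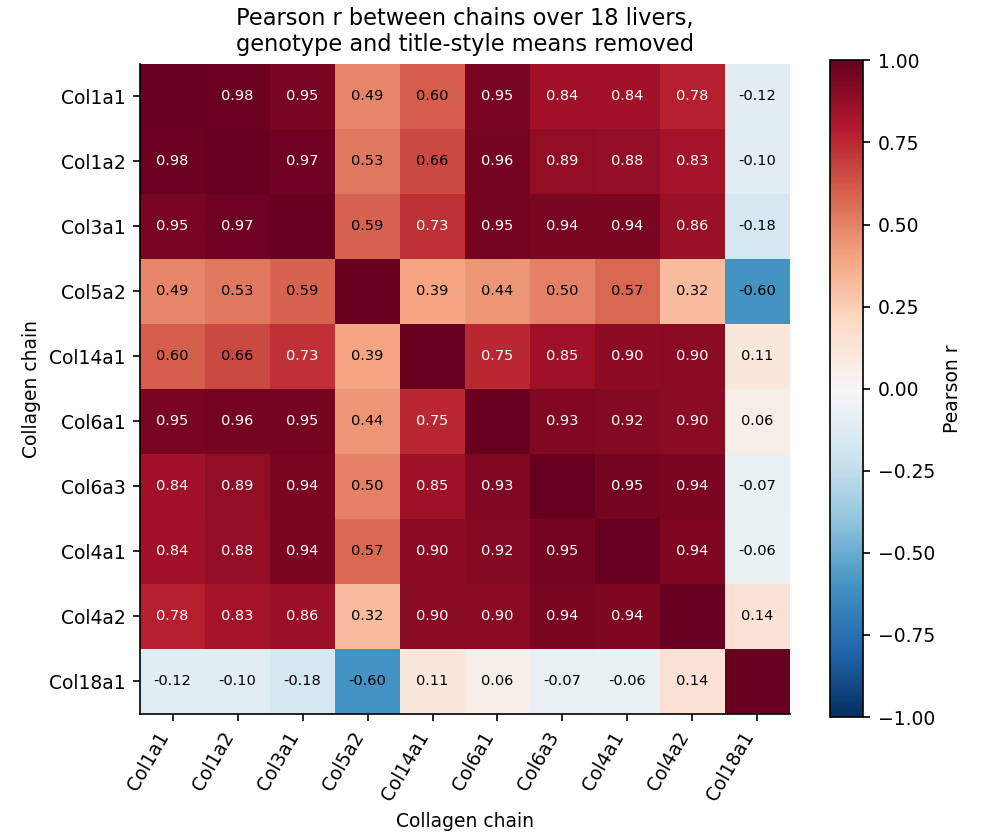
Pearson's r between the 10 chains over 18 livers, computed on log2(FPKM + 0.1) after the mean of each genotype and title style was removed. The block of 8 chains has r from 0.60 to 0.98, while the rows of *Col5a2* (0.32 to 0.59 with those 8) and *Col18a1* (-0.18 to 0.14) are paler.

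Over 10834 other genes, the ones whose levels ran closest to *Col1a1* in the same centred values were *Col1a2* (r = 0.98), *Col3a1* (r = 0.95) and *Sparc* (r = 0.95), which encodes a collagen-binding matrix protein. For *Col6a1* they were *Col1a2* (r = 0.96), *Col3a1* (r = 0.95) and *Sparc* (r = 0.95). For *Col4a1* they were *Gpr124* (r = 0.97), an adhesion receptor of vessels and pericytes, *Col6a3* (r = 0.95) and *Col3a1* (r = 0.94). Collagens took 4, 7 and 6 of the 20 closest places for *Col1a1*, *Col6a1* and *Col4a1*. *Sparc* itself went from 48.0 to 28.4 FPKM, with a log2 difference of -0.72 (adjusted p = 0.0482 in limma). These genes were picked as the highest of many and their r values carry no test.

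With the 10 chains above included, 16 collagen chains reached the minimum of 1 FPKM, with a median log2 difference of -0.84. Of these 16, 9 were called lower and 0 higher, where 4.28% of all genes were called lower. Of the 6 further chains only *Col6a2* and *Col5a1* were called lower. With median-of-ratios scaling 7 of the 16 were, beside 1.58% of all genes. Besides *Col6a2*, *Col5a1*, the partner chain of *Col5a2* in type V, went from 2.45 ± 0.852 to 1.23 ± 0.328 FPKM, a log2 difference of -0.90 (SE 0.20, adjusted p = 0.0170 in limma). *Col5a1* thus had the same difference as *Col5a2* with a smaller SE. *Col15a1*, the closest relative of *Col18a1*, had a log2 difference of -0.72 (SE 0.28, adjusted p = 0.134 in limma), unlike *Col18a1* itself at 0.06. *Col5a3*, another type V chain, had close levels of 8.90 ± 1.51 and 9.12 ± 2.91 FPKM, with a 95% interval of -0.38 to 0.35 for the log2 difference. *Col27a1* (-0.44, adjusted p = 0.390) and *Col13a1* (-0.19, adjusted p = 0.639) did not pass in limma, and 28 chains were below the minimum.

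The genes that process collagen were compared as lists. Of the enzymes and chaperones that hydroxylate and fold the chains, 14 of 20 were tested and 1 fell, a share near the 4.28% of all genes called lower: *Glt25d1*, a galactosyltransferase that glycosylates hydroxylysine, with a log2 difference of -0.40 (SE 0.10, adjusted p = 0.0337 in limma). *Serpinh1*, the collagen chaperone Hsp47, went from 14.9 ± 5.33 to 8.50 ± 2.40 FPKM but did not pass (adjusted p = 0.0620 in limma), and the list's median was -0.18. Of the genes for propeptide cleavage and cross-linking, 5 of 15 were tested, with a median of -0.62, and 2 fell. These were *Adamts2*, which removes the amino-terminal propeptide of fibrillar procollagens (-0.92, SE 0.20, adjusted p = 0.0198), and *Loxl2*, a cross-linking lysyl oxidase (-1.09, SE 0.24, adjusted p = 0.0205), both in limma.

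Collagen breakdown was represented by 6 tested genes of 12, with a median of -0.52, of which 3 fell. *Timp1*, an inhibitor of collagenases, went from 2.54 ± 1.41 to 0.544 ± 0.329 FPKM with a log2 difference of -1.98 (SE 0.41, adjusted p = 0.0159 in limma), as large as that of *Col1a1*. The inhibitor *Timp2* (-0.64, adjusted p = 0.0322) and the gelatinase *Mmp2* (-0.97, adjusted p = 0.0324) also fell in limma. Of the collagen receptors 4 of 10 were tested, with a median of -0.44, and 1 fell: *Lair1*, an inhibitory receptor of leukocytes (-0.54, SE 0.15, adjusted p = 0.0472 in limma). With median-of-ratios scaling *Glt25d1*, *Timp2* and *Lair1* no longer passed, at adjusted p-values of 0.0649, 0.0565 and 0.106. *Cthrc1*, a secreted protein of collagen-producing cells, had an entry of 0 in 4 WT livers and in each of the 9 *Gpr180*KO livers, and reached 0.221 FPKM at most in the others, below the minimum for a test.

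Markers of collagen-making cells were compared beside the chains, and their part in the collagen differences was not tested. The summed FPKM of 12 stellate cell markers was 169 to 269 in WT and 110 to 162 in *Gpr180*KO livers, so that all 9 *Gpr180*KO livers were below every WT liver. That gap came mostly from decorin (*Dcn*), a small proteoglycan that binds collagen fibrils, at 144 ± 24.3 and 89.7 ± 12.6 FPKM (log2 difference -0.68, adjusted p = 0.00631 in limma). *Dcn* alone also separated the genotypes, at 116 FPKM in the lowest WT liver and 103 FPKM in the highest *Gpr180*KO liver. Such a full separation was found for 0.175% of all genes tested, and it was not counted for sums of other genes. Without *Dcn* the sums overlapped, at 50.96 to 84.1 and 43.7 to 63.2 FPKM, and 2 of the 9 *Gpr180*KO livers were below every WT liver. Of 11 stellate markers tested, 2 fell, *Dcn* and *Pdgfrb*, and the median was -0.32. The vitamin A enzyme *Lrat* (-0.31, adjusted p = 0.446), *Colec11* (-0.12, adjusted p = 0.628) and desmin (*Des*, -0.08, adjusted p = 0.812) did not pass in limma. *Tcf21* (-0.48, adjusted p = 0.0573) and *Reln* (-0.56, adjusted p = 0.0657) were nearer to the threshold. All 11 tested stellate markers had lower means in *Gpr180*KO livers. The median over all genes tested was also below 0, at -0.13, and the share of all genes with lower means was not counted. With median-of-ratios scaling the log2 differences of *Colec11* (0.0042) and *Des* (0.038) were positive. With title style as a block 4 were called lower, in a fit in which 9.52% of all genes were.

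Of the activated stellate cell and myofibroblast markers, 4 of 7 tested fell (*Postn*, *Spp1*, *Timp1* and *Vim*) with a median of -1.12, or 3 with median-of-ratios scaling, where *Vim* no longer passed (adjusted p = 0.0810 in limma). Their sum was 57.8 to 285 FPKM in WT and 34.3 to 80.8 FPKM in *Gpr180*KO livers. *Spp1*, which made up most of that sum and is also made by bile duct cells and macrophages, went from 133.5 ± 71.6 to 30.4 ± 10.5 FPKM. *Acta2*, smooth muscle actin, did not pass (-0.83, SE 0.35, adjusted p = 0.169 in limma). W157 was the lowest WT liver for *Timp1* (0.399 FPKM), *Acta2* (0.346 FPKM), *Vim* (8.74 FPKM) and *Postn* (4.25 FPKM) as well as for 9 collagens.

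Other cell types were compared in the same way. Portal fibroblast and mesothelial markers, of which 2 of 11 reached 1 FPKM, summed to 3.65 to 17.5 FPKM in WT and 4.84 to 8.77 FPKM in *Gpr180*KO livers, and *Dpt* fell (-1.07, adjusted p = 0.0161 in limma). Of 9 sinusoidal endothelial markers 0 passed in limma, and 8 had lower means in *Gpr180*KO livers. Their sums were 130 to 219 in WT and 122 to 192 FPKM in *Gpr180*KO livers, and their median log2 difference was -0.15. The lowest unadjusted p of these markers in limma was 0.0528, for *Cdh5*. Of 9 macrophage markers 3 fell (*Trem2*, *Cd68* and *Gpnmb*), with sums of 141 to 279 and 154 to 218 FPKM, and with median-of-ratios scaling *Gpnmb* no longer passed (adjusted p = 0.0525 in limma). The Kupffer cell markers *Clec4f* (0.16, adjusted p = 0.573) and *Timd4* (0.16, adjusted p = 0.676) did not pass in limma. Neither did *Vsig4* (-0.23, adjusted p = 0.233) and *Cd5l* (-0.20, adjusted p = 0.525) of the same list. Means were lower in *Gpr180*KO livers for 7 of the 9 macrophage markers, where the median log2 difference of all genes tested was -0.13.

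The defining hepatocyte markers were high in every liver, with *Apoa1* at a mean of 8397 FPKM, and 0 of 9 passed in limma. Their sum was 13300 to 16116 FPKM in WT and 14203 to 26461 FPKM in *Gpr180*KO livers, the highest being KO51, which also had the highest FPKM total of all livers. The lowest unadjusted p among them was 0.0609, for *Ass1*. One tested marker each of smooth muscle (*Smtn*, -0.52, adjusted p = 0.0373) and of bile duct (*Sox9*, -0.70, adjusted p = 0.0454) fell in limma, both close to 1 or 2 FPKM, and neither passed with median-of-ratios scaling (adjusted p = 0.105 and 0.120). The lymphocyte markers were all below 1 FPKM, with sums of 1.48 to 4.70 in WT and 1.60 to 3.12 FPKM in *Gpr180*KO livers. The 4 fat cell markers summed to 1.60 to 46.7 FPKM in WT and 4.36 to 278 FPKM in *Gpr180*KO livers, the highest again being KO51. *Cfd*, the one tested, had means of 18.8 and 52.3 FPKM (adjusted p = 0.602 in limma), while *Plin1* was listed at 0 in all livers. Of 4 red blood cell markers 0 passed in limma, with a lowest unadjusted p of 0.00861 for *Alas2*.

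**Figure D5:**
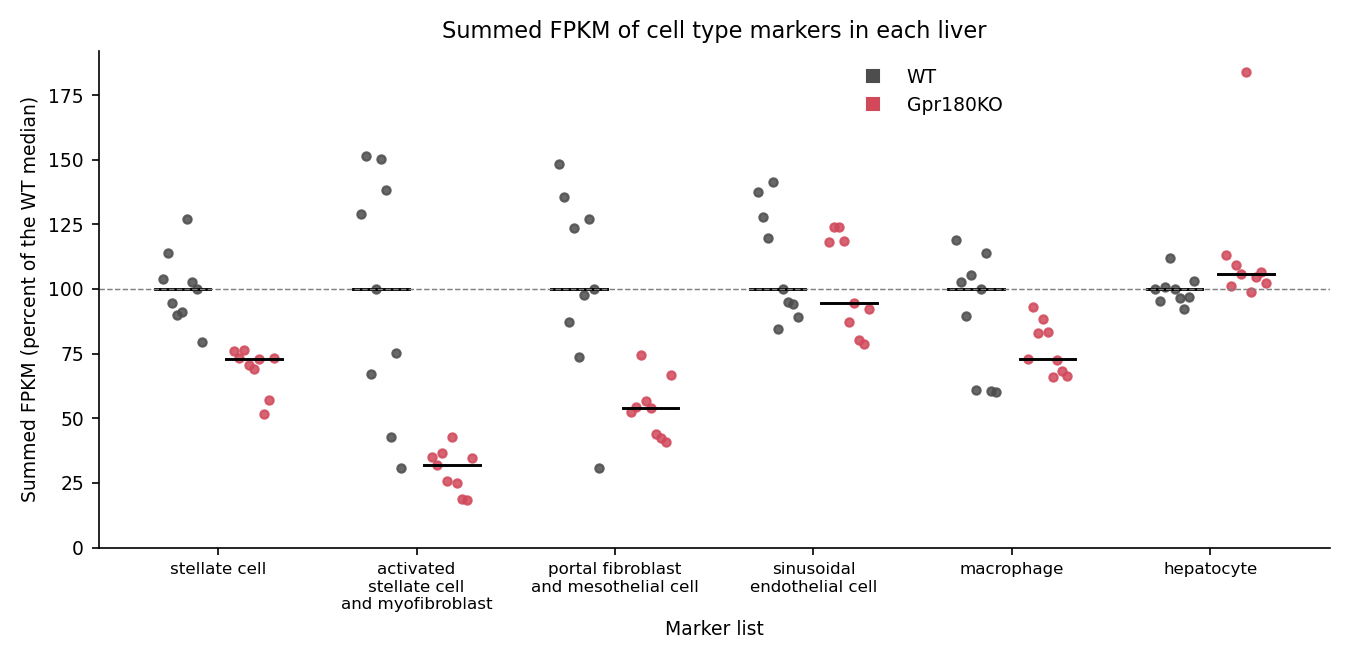
Summed FPKM of 6 marker lists in each liver, as a percent of the WT median of that list (dashed line), dark for WT and red for *Gpr180*KO, with black lines at the median of 9 livers. Stellate cell sums of the *Gpr180*KO livers lie below all WT livers, a gap that came mostly from *Dcn*. Those of sinusoidal endothelial cells overlap, and the hepatocyte point at the top is KO51.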

How the data were processed

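RNA sequencing of 18 livers was analysed from the gene FPKM tables the authors deposited, 1 per mouse, each with an interval and a status per entry. Poly(A) libraries were aligned with TopHat to mm10 (GRCm38) by the authors, and the FPKM program, its version and its annotation are not given in the sources used here. FPKM of entries with the same symbol were summed (252 symbols), and 24 genes with failed values were left out. Read counts were not used here. Ratios of low values between libraries fell on whole-number ratios for 68.0% to 80.2% of genes (within 0.5%), which gave relative depths of 0.443 (KO319) to 1.0 (W317), with medians of 0.748 in WT and 0.682 in *Gpr180*KO libraries. Nothing states that the mice shared cages or preparation days, and no 2 libraries were identical.

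Groups came from the labels. Genes with a mean of at least 1 FPKM were compared on log2(FPKM + 0.1) with limma 3.58.1 (lmFit and eBayes with a trend) in R 4.3.3, with Benjamini-Hochberg adjustment over 10835 genes and a threshold of 0.05, checked on simulated data. Neighbours in level were compared by exact sign-flip permutation (smallest possible p 0.00391, two-sided), and co-variation by 100000 permutations within genotype and style (scipy 1.17.1, numpy 2.4.6). Genes were named by these rules: the 10 chains, *Gpr180*, *Cthrc1*, every further collagen chain tested, up to 5 past the threshold per pathway list, the 3 most alike to 3 chains, and up to 3 markers per list. *Serpinh1*, *Lrat*, *Des*, *Acta2* and other list members outside these rules were named after their values were seen. The members, lists and tests were chosen with earlier results of these data known. Symbols P3h1 and 7 others were matched under older names, and Hbb-bt was not matched.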

Additional observations from a re-analysis of the deposited data

Results flagged for a closer look

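One value was far from the rest of its group by a test of gaps (Dixon's, on 9 livers), which was applied to the lowest and the highest liver of each genotype for the 10 chains. It was *Col4a1* in the WT liver W157, at 2.59 on the log2(FPKM + 0.1) scale, where the gap to the next liver was 0.524 of the WT range, above the 95% critical value for 9 samples. Chance flags about 1 in 20 groups, and 20 groups were tested. The same liver's gap for *Col1a1* was 0.462 of the range, under the critical value.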

How the results depend on the processing

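No paired analysis was possible because the numbers in the titles, used here in the liver names, were taken to name single mice. Of 639 recomputed values, 543 kept their direction and side of the threshold or, for counts and values without a test, stayed within 1.5 times or within the spread of the reported value. *Col1a1* and *Col3a1* were called in every alternative except title style 2 alone, and *Col18a1* in none. The number of chains called lower was 7, but 4 with a minimum of 5 FPKM, where 7 chains were tested, and 0 in title style 2 alone, where 10 livers remained. It was 5 with median-of-ratios or 75th percentile scaling, in which *Col4a1* and *Col4a2* no longer passed, and from 2 (without W133) to 9 (without W157) when each liver was left out. Of all genes, 464 were called lower and 49 higher. The number lower was 776 and 200 with minimums of 0.1 and 5 FPKM, 171 with median-of-ratios and 214 with 75th percentile scaling, 1031 with title style as a block, 1161 with library weights, 0 in title style 2 alone, and 116 to 844 when each liver was left out. The number higher was 112 and 108 with median-of-ratios and 75th percentile scaling, 122 with the block, 90 in title style 1 alone, 0 in style 2 alone, 170 with library weights and 16 to 89 when each liver was left out. The block with median-of-ratios scaling, chosen after seeing the data, gave 8 chains lower, with 390 of all genes lower and 248 higher. Scaling thus moved the share of lower against higher calls, from 464 against 49 to 171 against 112. The difference between title styles turned sign with median-of-ratios scaling for *Col1a2* (-0.034 to 0.064) and *Col14a1* (-0.064 to 0.038), all near 0 and not past the test. The log2 difference in the fibrillar to basement membrane ratio was -1.68, and -0.91 with type IV alone below the line, which was also chosen after seeing the data; that alternative leaves out *Col18a1*. The cause of the other changes was not tested.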
